A study of Mus musculus with 12 samples.

Results

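Expression of 10 genes that encode subunits of the SWI/SNF chromatin remodeling complex (Arid1a, Arid1b, Arid2, Pbrm1, Smarca2, Smarca4, Smarcb1, Smarcc1, Smarcc2 and Smarcd3) was examined in mouse pancreatic tumors. The genes were taken by name, and all 10 were found among the 22630 gene rows measured. RNA was sequenced from 12 bulk, unsorted subcutaneous tumors grown from KCip53-1 cells in NSG mice aged 8 to 10 weeks, a strain without mature lymphocytes. KCip53-1 is a single mouse line of sorted tumor cells. Its donor carried Ptf1a-Cre, which is active in pancreatic epithelium. It also carried TREp53 R270H and 2 copies of R26 rtTa, through which doxycycline (dox) switches on mutant p53. No-dox mice never received dox (4 tumors). Plus-dox mice were kept on dox (0.2 g/l in drinking water with 5% sucrose) for 36 days (4 tumors). Off-dox mice had 33 days of dox followed by 3 days of none (4 tumors). Tumors were implanted in pairs, and the labels do not say which of them shared a mouse, so the p-values measure only the spread between tumors taken as independent.

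SWI/SNF complexes use the energy of ATP to slide or evict nucleosomes and thereby open or close regulatory DNA. Their motor is Smarca4 (also called BRG1) or its paralog Smarca2 (BRM), held by a core of Smarcb1, Smarcc1, Smarcc2 and a Smarcd protein. Arid1a or Arid1b marks the canonical BAF form of the complex, and Arid2 together with Pbrm1 marks the PBAF form. Genes of the complex, ARID1A above all, are recurrently lost in human pancreatic cancer.

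The Trp53 row did not separate the groups. Trp53 lay between 40.1 and 57.4 RPKM (reads per kilobase of exon, scaled to the mapped reads of the tumor) in no-dox, 40.4 and 56.0 in plus-dox and 41.6 and 45.4 in off-dox tumors, and the row does not tell the transgene from the endogenous gene. The groups are therefore named here by their dox labels only. In tumors of KCip53 cells the paper stained for dsRed, a reporter expressed together with mutant p53. It reports no dsRed in no-dox tumors, patchy dsRed in plus-dox tumors and fewer dsRed cells in off-dox tumors. That staining is separate from the RNA values given here. The reads counted on genes numbered 19845923 to 33137609 per tumor. They were 25673348 to 33137609 in no-dox, 20784597 to 30208368 in plus-dox and 19845923 to 25088486 in off-dox tumors. Every off-dox tumor thus had fewer counted reads than every no-dox tumor. The counted share of mapped reads was 88.4% to 89.4% without dox, 82.2% to 87.1% with dox and 81.1% to 85.8% off dox, so this share separated the no-dox tumors from the other 8. All 10 epithelial markers were detected in every tumor (Krt8 317.7 to 972.5 RPKM, Krt19 98.1 to 352.4), and the ductal factors Sox9 (15.9 to 27.6) and Pdx1 (7.44 to 21.2) were present, whereas the acinar factor Ptf1a was listed at 0 in all 12. RNA from host cells is part of every value, and in such bulk tumors fewer cells of a type and less RNA per cell cannot be told apart.

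The summed level of the 10 epithelial markers was 2326 to 3137 RPKM in no-dox, 1366 to 2059 in plus-dox and 1079 to 2689 in off-dox tumors. That of 8 T and NK cell markers was 2.98 to 4.64, 5.42 to 7.12 and 5.23 to 9.30 RPKM, and that of 12 skeletal muscle markers 13.2 to 226.9, 184.9 to 578.5 and 14.8 to 1560 RPKM. Epithelial sums therefore lay lower in every plus-dox than in every no-dox tumor, and T and NK cell sums lay higher in all 8 tumors given dox than in all 4 without. The T and NK cell sums are low, with 6 of the 8 markers above 0 in every tumor. NSG mice lack mature lymphocytes, so these sums cannot be read as numbers of such cells. Plus-dox tumor 2 and off-dox tumor 4 stand apart from the other 10, with acinar marker sums of 6.48 and 8.23 RPKM against 33.0 to 116.4 in the rest. Of the 6 acinar markers, Amy2a5, Prss1 and Ptf1a were at 0 in all 12 tumors and Cpa1 was at most 0.17 RPKM. These sums therefore rest almost wholly on Cela1 and Bhlha15 and do not measure acinar cells. Plus-dox tumor 2 also had the highest fibroblast (3229 RPKM) and endothelial (153.2 RPKM) sums. The sum of 8 adipocyte markers was 28.0 to 1110 RPKM in no-dox, 33.7 to 698.4 in plus-dox and 45.7 to 323.3 in off-dox tumors. Within the no-dox group it was 1110 and 908.3 RPKM in tumors 1 and 3, against 66.3 and 28.0 in tumors 2 and 4. The part of these differences in the results on the subunits was not tested.

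The sequence just upstream of 9 of the 10 genes was at hand from RefSeq (GRCm38.p6), with 2 windows for Arid1a. All 10 windows of 250 bases matched the mm9 genome exactly once, and for 8 genes the window ended at the base before the gene model used for counting. The windows are shown for the 4 genes with an unadjusted p under 0.05 in some comparison below (for Arid1a the window nearer to its gene model, which lies 374 bases away). They are written 5′ to 3′ on the strand of the gene, with mm9 positions. Capitals mark GC boxes (GGGCGG on either strand), CCAAT boxes (CCAAT) and ETS sites (CCGGAAG), of which these windows hold only GC boxes.
Arid1a, chr4:133309901-133310150, minus strand: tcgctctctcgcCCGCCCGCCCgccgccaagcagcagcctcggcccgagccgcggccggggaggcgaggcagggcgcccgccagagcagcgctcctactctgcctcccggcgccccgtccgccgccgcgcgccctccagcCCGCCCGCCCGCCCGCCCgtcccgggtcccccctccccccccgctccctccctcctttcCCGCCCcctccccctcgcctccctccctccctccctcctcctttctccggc
Pbrm1, chr14:31832074-31832323, plus strand: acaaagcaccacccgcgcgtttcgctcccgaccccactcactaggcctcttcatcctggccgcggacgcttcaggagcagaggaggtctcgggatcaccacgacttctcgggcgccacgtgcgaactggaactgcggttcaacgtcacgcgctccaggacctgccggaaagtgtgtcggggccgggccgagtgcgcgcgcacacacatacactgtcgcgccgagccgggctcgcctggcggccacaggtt
Smarcb1, chr10:75384360-75384609, minus strand: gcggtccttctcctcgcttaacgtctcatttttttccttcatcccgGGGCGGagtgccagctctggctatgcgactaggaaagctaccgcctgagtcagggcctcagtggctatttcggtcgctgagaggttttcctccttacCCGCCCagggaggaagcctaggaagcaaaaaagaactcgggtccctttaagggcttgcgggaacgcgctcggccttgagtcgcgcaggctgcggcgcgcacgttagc
Smarcc2, chr10:127896042-127896291, plus strand: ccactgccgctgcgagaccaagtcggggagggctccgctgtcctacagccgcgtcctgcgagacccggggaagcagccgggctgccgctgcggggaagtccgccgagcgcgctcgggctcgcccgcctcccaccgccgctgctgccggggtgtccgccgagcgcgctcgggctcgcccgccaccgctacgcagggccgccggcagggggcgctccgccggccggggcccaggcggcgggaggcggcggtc
Arid1a held 7 GC boxes, some of them overlapping, and Smarcb1 held 2, whereas Smarcc2 and Pbrm1 held 0. A GC box was found in 8 of the 10 windows of the subunits and in 32.7% of all 32851 promoter windows of that length. A CCAAT box was found in 0 of 10 windows against 33.8% of all, a TATA box (TATAAA) in 0 of 10 against 12.4%, an ETS site in 2 of 10 (Smarca2 and Smarcc1) against 6.91%, and an E-box (CACGTG) in 1 of 10 (Pbrm1) against 6.02%. The 10-letter p53 half-site had no match in any of the 10 windows and a match in 7.13% of all. CpG dinucleotides numbered 18 to 40 per window, against a median of 6 (interquartile range 2 to 16) over all promoters. The motif shares were not set against promoters of like CpG content, so they cannot be read as particular to these genes. These matches describe the letters in the windows and say nothing of binding.

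All subunits were expressed in every tumor. In order of mean RPKM over the 12 tumors they were Smarcb1 (26.6 ± 2.99), Smarcc2 (24.1 ± 3.13), Smarca4 (19.4 ± 2.31), Smarcc1 (15.7 ± 2.37), Pbrm1 (12.8 ± 1.15), Arid1a (12.6 ± 1.71), Smarcd3 (9.56 ± 2.08), Arid2 (6.99 ± 0.93), Smarca2 (5.74 ± 1.04) and Arid1b (4.71 ± 0.60) (SD, n = 12). Each gene in this order overlapped the next within these errors. The core subunits Smarcb1 and Smarcc2 thus had the highest levels and Arid2, Smarca2 and Arid1b the lowest, with the core subunit Smarcd3 in place 7. Within single tumors, Smarcc1 ranked 4 and Arid2 ranked 8 in all 12, and Smarcc2 ranked 1 or 2. Their RPKM exceeded that of 26.1% (Arid1b) to 78.3% (Smarcb1) of the 12694 genes whose mean RPKM exceeded 1. Between 350 (Smarcd3) and 4832 (Smarca4) reads stood behind each value. Across the 12 tumors the SD of log2 CPM (counts scaled to library size) ran from 0.15 (Pbrm1) to 0.29 (Smarcd3), with a median of 0.20 beside 0.24 over those 12694 genes, and the highest tumor exceeded the lowest by 1.39-fold (Pbrm1) to 1.88-fold (Smarcd3).

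**Figure D1:**
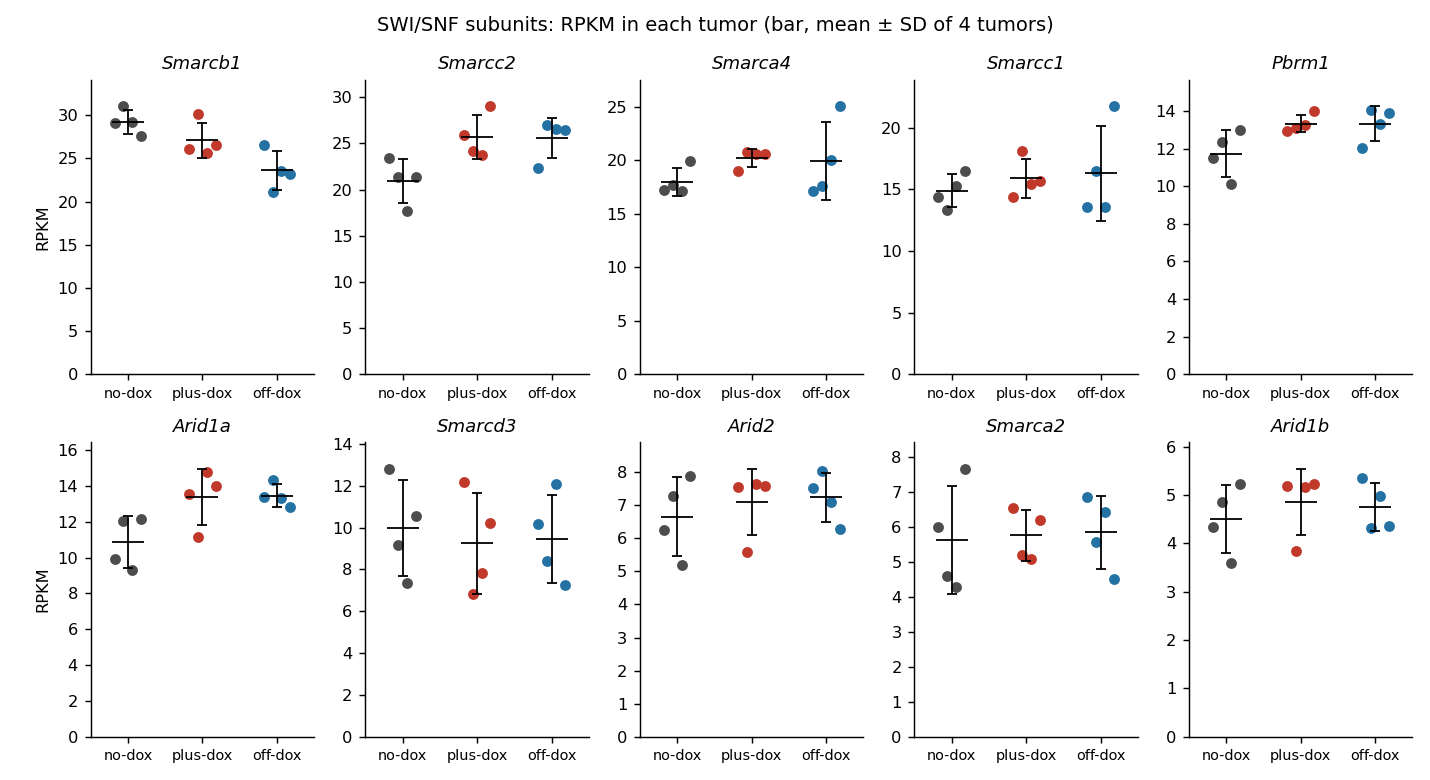
RPKM (y axis, from 0) of the 10 subunits in each tumor by group, with points for tumors and bars for the mean ± SD of 4 tumors. Off-dox tumors lie below all no-dox tumors for Smarcb1 and above them for Arid1a, plus-dox tumors lie above all no-dox tumors for Smarcc2, and off-dox tumor 4 is the highest point for Smarca4 (25.1 RPKM) and Smarcc1 (21.7 RPKM).

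Of the ATPases, Smarca4 (chromosome 9 of mm9, 21420613 to 21508674) had 17.2, 17.7, 17.2 and 20.0 RPKM in no-dox tumors 1 to 4, 19.0, 20.8, 20.6 and 20.6 in plus-dox tumors, and 17.2, 17.6, 20.0 and 25.1 in off-dox tumors. Its groups overlapped, and no-dox tumor 4 was its only no-dox value above the lowest plus-dox value. Smarca2 (chromosome 19, 26679650 to 26852811), the alternative motor, had 5.99, 4.60, 4.27 and 7.65 RPKM in no-dox, 6.54, 5.18, 5.09 and 6.20 in plus-dox, and 6.84, 5.57, 6.44 and 4.52 in off-dox tumors. The lowest and the highest Smarca2 value were both in the no-dox group. The span of Smarca2 overlaps Snora19 and the opposite-strand gene 4931403E22Rik. The authors counted over exonic stretches that belong to a single gene, so by that rule bases shared with those genes did not enter its value. Smarca4 exceeded Smarca2 in every tumor, by 2.61 to 4.03 times in no-dox, 2.91 to 4.05 in plus-dox and 2.51 to 5.55 in off-dox tumors. The value of 5.55 was that of off-dox tumor 4, and without it and plus-dox tumor 2 the ratio was 3.24 ± 0.56 (SD, n = 10) against 3.50 ± 0.85 over all 12.

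Of the scaffold proteins, Smarcc2 (BAF170; chromosome 10, 127896292 to 127927230) had 23.5, 21.4, 17.7 and 21.3 RPKM in no-dox, 25.9, 24.2, 23.7 and 29.0 in plus-dox, and 22.4, 27.0, 26.6 and 26.5 in off-dox tumors. All plus-dox values lay above all no-dox values, and off-dox tumor 1 was the only off-dox value below the highest no-dox value. Its paralog Smarcc1 (BAF155; chromosome 9, 110034528 to 110142682) had 14.4, 13.3, 15.3 and 16.5 RPKM in no-dox, 14.4, 18.1, 15.4 and 15.7 in plus-dox, and 13.6, 16.5, 13.6 and 21.7 in off-dox tumors. Its groups overlapped throughout. Smarcc1 reached 0.61 to 0.86 of the RPKM of Smarcc2 in no-dox, 0.54 to 0.75 in plus-dox and 0.51 to 0.82 in off-dox tumors, so Smarcc2 was the more abundant of the pair in all 12.

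Smarcb1 (SNF5; chromosome 10, 75359514 to 75384359), a core subunit that contacts the nucleosome, had 29.1, 31.0, 29.2 and 27.6 RPKM in no-dox, 26.1, 30.1, 25.6 and 26.5 in plus-dox, and 26.6, 21.1, 23.6 and 23.3 in off-dox tumors. Every off-dox value lay below every no-dox value. Smarcd3 (BAF60C; chromosome 5, 24098440 to 24107820), a core subunit best known from heart and muscle, had 12.8, 9.15, 7.36 and 10.5 RPKM in no-dox, 12.2, 6.81, 7.82 and 10.2 in plus-dox, and 10.1, 8.39, 12.1 and 7.24 in off-dox tumors. Its groups overlapped and it had the widest spread of the 10. The skeletal muscle sum was highest in off-dox tumor 3 (1560 RPKM), where Smarcd3 was at 12.1, and off-dox tumor 2 (985.5 RPKM), where it was at 8.39. Beside Smarcd3, the core partners Smarcd1 and Smarcd2 had 8.78 ± 0.96 and 21.4 ± 3.63 RPKM, and Smarce1 and Actl6a, further core subunits, had 39.6 ± 5.27 and 31.2 ± 6.02 (SD, n = 12).

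Arid1a (chromosome 4, 133234923 to 133309526), the DNA-binding subunit of canonical BAF, had 9.95, 12.0, 9.32 and 12.1 RPKM in no-dox, 13.6, 11.2, 14.8 and 14.0 in plus-dox, and 13.4, 14.3, 13.3 and 12.8 in off-dox tumors. All off-dox values lay above all no-dox values, and plus-dox tumor 2 was the only plus-dox value within the no-dox range. Its alternative Arid1b (chromosome 17, 4995074 to 5347656) had 4.35, 4.86, 3.60 and 5.24 RPKM in no-dox, 5.19, 3.84, 5.16 and 5.23 in plus-dox, and 5.37, 4.31, 4.98 and 4.37 in off-dox tumors, with the groups overlapping. Arid1a exceeded Arid1b by 2.29, 2.48, 2.59 and 2.31 times in no-dox, 2.61, 2.91, 2.86 and 2.67 times in plus-dox, and 2.50, 3.32, 2.67 and 2.93 times in off-dox tumors. The ratio was higher in every plus-dox than in every no-dox tumor, whereas off-dox tumor 1 lay within the no-dox range; it was not tested.

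Of the PBAF subunits, Arid2 (chromosome 15, 96117953 to 96235894) had 6.26, 7.26, 5.18 and 7.90 RPKM in no-dox, 7.54, 5.60, 7.65 and 7.58 in plus-dox, and 7.53, 8.04, 7.11 and 6.29 in off-dox tumors. Pbrm1 (polybromo-1, which reads acetylated histones; chromosome 14, 31832324 to 31934778) had 11.5, 12.3, 10.1 and 13.0 RPKM in no-dox, 12.9, 13.1, 13.3 and 14.0 in plus-dox, and 12.0, 14.1, 13.3 and 13.9 in off-dox tumors. No-dox tumor 3 held the lowest value of both, and both genes had overlapping groups. The summed RPKM of Arid2 and Pbrm1 was 1.16 to 1.24 times that of Arid1a and Arid1b in no-dox, 1.05 to 1.25 times in plus-dox and 1.04 to 1.19 times in off-dox tumors. The RNA ratio of PBAF to BAF marker subunits thus stayed within 1.04 to 1.25 in all 12 tumors. It does not measure protein or the amounts of the complexes.

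**Figure D2:**
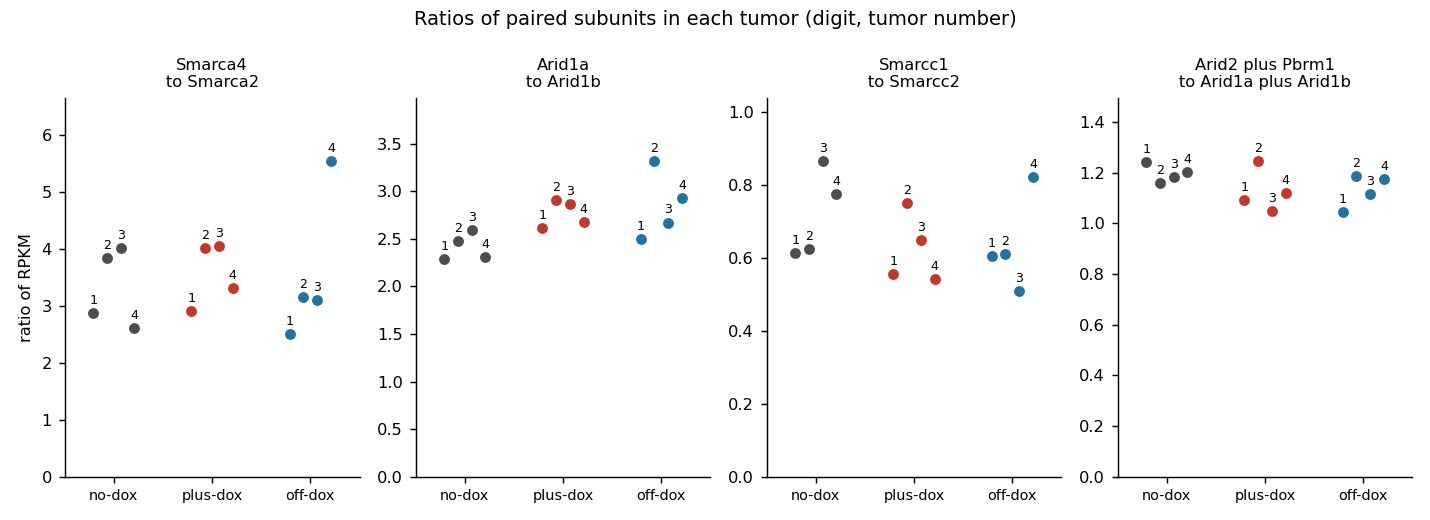
Ratio of RPKM (y axis, from 0) of paired subunits in each tumor by group, with the tumor number above each point. Smarca4 to Smarca2 reaches 5.55 in off-dox tumor 4, and Arid1a to Arid1b lies at 2.61 to 2.91 in plus-dox against 2.29 to 2.59 in no-dox tumors.

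To ask whether dox, given throughout or given and removed, went with a different expression of the complex, counts were compared in edgeR's quasi-likelihood test over all 17561 genes tested. A call needed an adjusted p (Benjamini-Hochberg) below 0.1, more than 1.5-fold difference, more than 0.25 RPKM on average and more than 250 bp of exon. Comparing plus-dox with no-dox tumors, 0 of the 10 subunits were called (0% of all genes). Their fold changes ran from 0.93 (Smarcd3) to 1.24 (Arid1a), inside the 1.5-fold limit, and the smallest adjusted p was 0.33. By DESeq2 without moderated fold changes 0 of 10 had an adjusted p under 0.1 (smallest 0.13), beside 1.75% of genes with an adjusted value. An unadjusted p under 0.05 was found for 2 of 10, beside 13.7% of all genes, and the groups did not overlap for 1 of 10, beside 8.86% of all genes. These were Smarcc2, without overlap (log2 fold change 0.31 with a standard error of 0.10, unadjusted p = 0.0099, edgeR adjusted p = 0.33), and Arid1a (0.31 with a standard error of 0.12, unadjusted p = 0.021, edgeR adjusted p = 0.33). Without no-dox tumor 1, no-dox tumor 3 or plus-dox tumor 3 the count of 2 was 1. The genes under 0.05 in these fits were 1844 of 17430, 2048 of 17496 and 1556 of 17451. Smarcc2 was under 0.05 in all 12 fits that left out a tumor, and Arid1a in 9 of them. Of the others, 6 had log2 fold changes of 0.03 to 0.19, and the short genes Smarcb1 and Smarcd3 both had −0.10. The median over the 10 was 0.11, beside 0.01 over all genes tested.

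Between off-dox and no-dox tumors 0 of the 10 were called, beside 1.34% of all genes. Fold changes ran from 0.82 (Smarcb1) to 1.26 (Arid1a), and the smallest adjusted p was 0.12, so 0 of 10 were under 0.1 even without the fold limit, beside 3.46% of all genes. An unadjusted p under 0.05 was found for 4 of 10, beside 20.4% of all genes, and groups did not overlap for 2 of 10 (Arid1a and Smarcb1), beside 11.5%. Smarcc2 had a log2 fold change of 0.32 (standard error 0.10, unadjusted p = 0.0074, edgeR adjusted p = 0.12), Arid1a 0.34 (standard error 0.12, unadjusted p = 0.014, edgeR adjusted p = 0.15) and Pbrm1 0.21 (standard error 0.10, unadjusted p = 0.049, edgeR adjusted p = 0.24). In the 12 fits that each left out a tumor, the unadjusted p of Pbrm1 was under 0.05 in 2, and that of the other 3 in all 12. Smarcb1 was the only subunit with a lower value at this level, at −0.28 (standard error 0.09, unadjusted p = 0.010, edgeR adjusted p = 0.14). DESeq2 without moderated fold changes, an alternative, put 3 of the 10 under an adjusted p of 0.1, namely Smarcc2 (0.035), Arid1a (0.075) and Smarcb1 (0.078), beside 13% of all genes with an adjusted value, and it too called 0 of 10 because none passed 1.5-fold. The median log2 fold change over the 10 was 0.16, beside 0.01 over all genes tested. Both comparisons share the 4 no-dox tumors, so their values for a gene are not independent.

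Between off-dox and plus-dox tumors 0 of 10 were called (0% of all genes), 0 of 10 had an unadjusted p under 0.05 in edgeR (3.06% of all genes), and 0 of 10 had groups without overlap (1.4% of all genes). Log2 fold changes ran from −0.18 (Smarcb1, standard error 0.09, unadjusted p = 0.073) to 0.06 (Smarcc1, standard error 0.17), with standard errors of 0.09 to 0.21. Smarcc2 and Arid1a, which had the largest values against no-dox, stood at 0.02 and 0.03 here. Without off-dox tumor 1, 1 of 10 had an unadjusted p under 0.05, beside 813 of 17501 genes. A p above the threshold does not show equal expression. The precision is that of 4 tumors a group, with read counts of 350 or more behind every value.

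**Figure D3:**
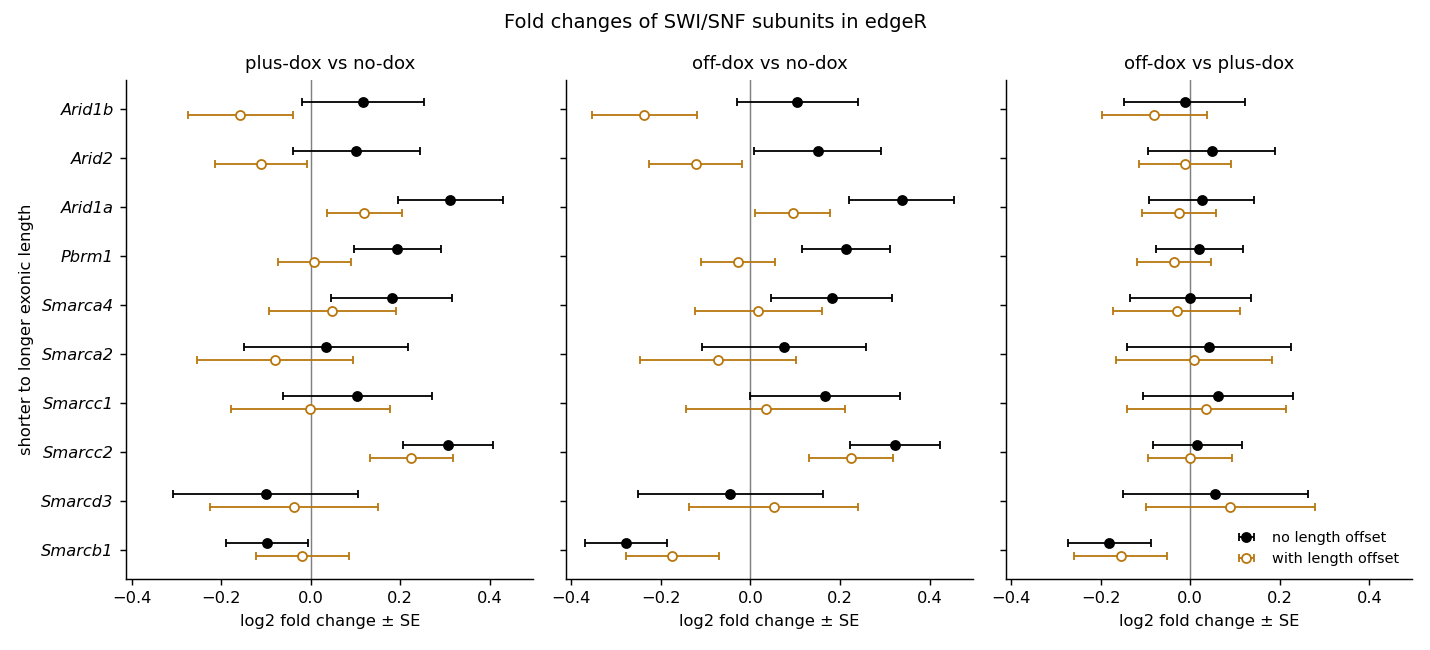
Log2 fold change ± standard error (x axis) of each subunit in the 3 comparisons from edgeR, without (black) and with (orange, open) an offset for exonic length, genes ordered by exonic length. Black points of the longer genes lie above 0 against no-dox tumors, and with the offset Smarcc2 (0.22 in both comparisons) is the point farthest above 0.

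Exonic length moved with these values. Against no-dox tumors, log2 fold changes of all genes climbed with the length of the gene, from a median of −0.12 for genes of 1000 to 2000 bp to 0.25 for genes over 8000 bp with plus-dox tumors, and from −0.14 to 0.33 with off-dox tumors. Off-dox against plus-dox the same medians were −0.03 and 0.08. Per tumor, genes over 5000 bp lay −0.41 to 0.003 above genes of up to 2000 bp on the log2 scale in no-dox tumors (relative to the mean of the 12), −0.11 to 0.19 in plus-dox and 0.01 to 0.30 in off-dox tumors. The lowest of these values was that of no-dox tumor 3, the tumor with the lowest RPKM of 6 of the 10 subunits (Arid1a, Arid1b, Arid2, Pbrm1, Smarca2 and Smarcc2). Arid1a, Arid1b, Arid2 and Pbrm1 were lower in no-dox tumors 1 and 3, which had the high adipocyte sums, than in no-dox tumors 2 and 4. Smarcc2 and Smarcd3, in contrast, had their highest no-dox value in tumor 1. The part of cell makeup in these values was not tested. Of the subunits, 4 have over 8000 bp of exon (Arid1b 11325, Arid2 9029, Arid1a 8175 and Pbrm1 8117), 4 have 5028 (Smarcc2) to 6376 bp (Smarca4), and Smarcb1 and Smarcd3 have 1657 and 1725 bp. Compared with genes of their own length class, 7 of the 10 lay between its quartiles in plus-dox vs no-dox and 8 of the 10 in off-dox vs no-dox.

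**Figure D4:**
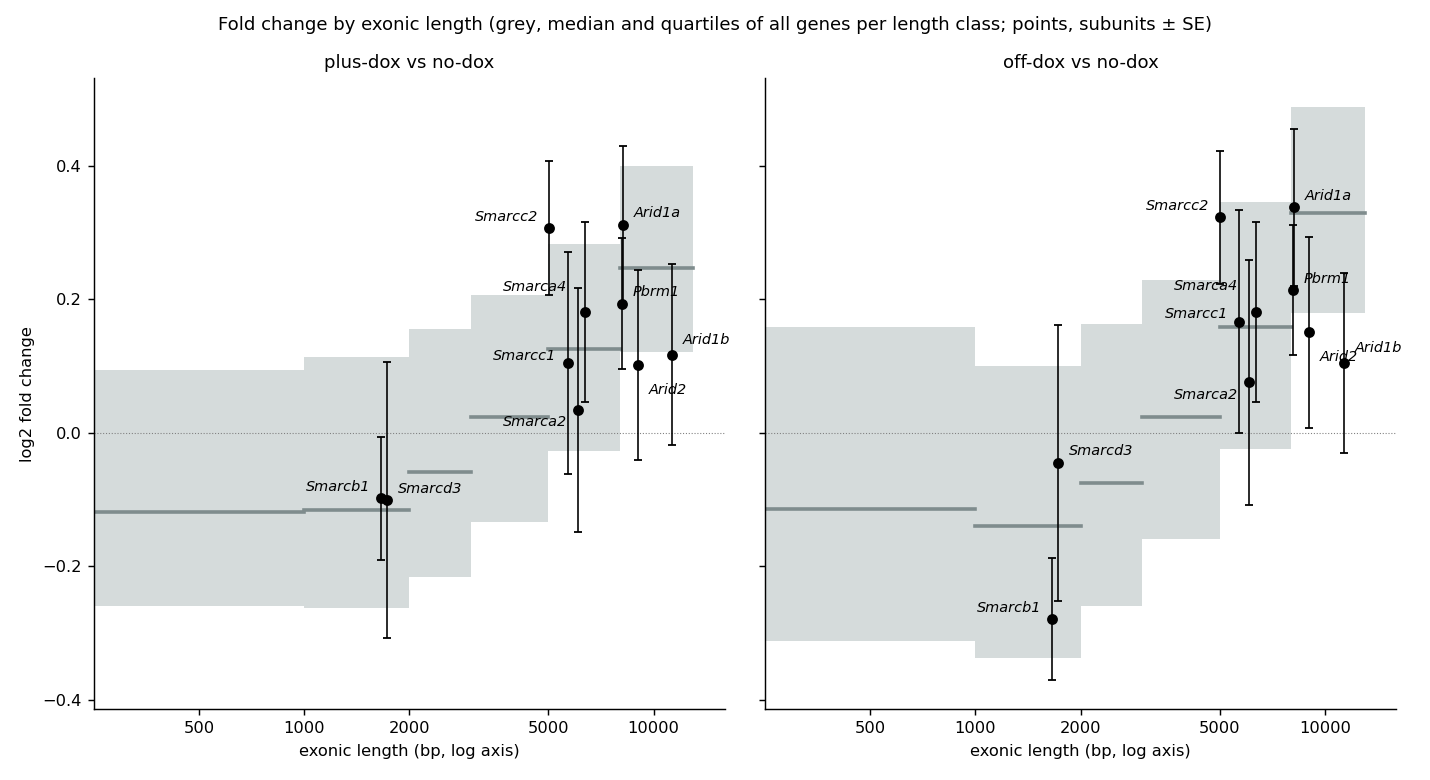
Log2 fold change against exonic length in bp (log axis) for plus-dox and off-dox vs no-dox tumors, with grey bars and boxes for the median and quartiles of all genes per length class (the last class is drawn to its longest subunits only) and points for subunits ± standard error. The grey medians climb from −0.12 to 0.25 and from −0.14 to 0.33, Arid1a lies within its class at both, and Smarcc2 lies above the median of its class by 0.18 and 0.16.

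A fit with the length trend of each tumor as an offset was therefore added after the data were seen. With it Smarcc2 kept a log2 fold change of 0.22 in both comparisons with no-dox tumors (standard error 0.09, unadjusted p = 0.033 in both, edgeR adjusted p = 0.42 for plus-dox and 0.27 for off-dox). It was 1 of 10 subunits with an unadjusted p under 0.05 in each, beside 11.2% and 16.6% of all genes, and off-dox against plus-dox there were 0 of 10, beside 3.14%. Arid1a went to 0.12 for plus-dox (unadjusted p = 0.18) and 0.09 for off-dox (unadjusted p = 0.28), and Pbrm1 to 0.01 and −0.03. Smarcb1 went to −0.02 for plus-dox and −0.17 for off-dox (unadjusted p = 0.12). Arid1b, the longest subunit, went from 0.10 to −0.24 off dox (unadjusted p = 0.066). Over the 10 subunits the medians became −0.01 and −0.01. With the counted share of mapped reads as a covariate, Smarcc2 went to 0.17 for plus-dox and 0.13 for off-dox. Arid1a went to 0.16 and 0.13, and Smarcb1 off dox to −0.11. In this fit 0 of 10 had an unadjusted p under 0.05 against no-dox, beside 478 (plus-dox) and 308 (off-dox) of all 17561 genes. The share separates no-dox tumors from the rest, and the standard error of Smarcc2 off dox was 0.18 in place of 0.10. This fit therefore cannot tell the share from the group.

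Of 20 further genes of SWI/SNF subunits, 19 were tested and 0 were called in any comparison, beside 1.34% of all genes in off-dox vs no-dox and 0% in the others. Off dox against no-dox 2 had an unadjusted p under 0.05 with a higher value and 4 with a lower one, beside 20.4% of all genes. The median over the 19 was −0.03. The higher ones were Gltscr1 (Bicra, a subunit of the non-canonical complex), with 3.28 ± 0.51 RPKM without dox and 4.45 ± 0.53 off dox (log2 fold change 0.46, edgeR adjusted p = 0.12), and Ss18l1 (0.30, edgeR adjusted p = 0.23). The lower ones were the core subunits Actl6a, at 37.5 ± 5.99 RPKM without dox and 27.5 ± 2.63 off dox (−0.42, edgeR adjusted p = 0.11), Smarcd2 (−0.33, edgeR adjusted p = 0.17) and Smarce1 (−0.30, edgeR adjusted p = 0.17), and Bcl7b (−0.23, edgeR adjusted p = 0.23). With the length offset Actl6a stood at −0.32, Smarcd2 at −0.30, Smarce1 at −0.27 and Gltscr1 at 0.35. These 4 of 19 had an unadjusted p under 0.05, beside 16.6% of all genes, whereas Ss18l1 and Bcl7b had unadjusted p-values of 0.11 and 0.25. In plus-dox vs no-dox Actl6a was the only one of the 19 with an unadjusted p under 0.05 (log2 fold change −0.38, edgeR adjusted p = 0.33), beside 13.7% of all genes. Between off-dox and plus-dox tumors Bcl7b was the only one (−0.22, edgeR adjusted p = 1), beside 3.06%. Smarcd1 lay at −0.11, 0.01 and 0.12 in plus-dox vs no-dox, off-dox vs no-dox and off-dox vs plus-dox. Actl6b, the neuronal counterpart of Actl6a, was at 0.0039 RPKM and was not tested.

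Other chromatin regulators were read from the same fit for comparison, beside the 20.4% of all genes with an unadjusted p under 0.05 off dox against no-dox. Of 8 ISWI genes, which space nucleosomes, 0 were called, and 5 had an unadjusted p under 0.05 off dox against no-dox, all with higher values: Baz1a (0.32), Baz1b (0.23), Baz2a (0.48), Bptf (0.37) and Rsf1 (0.37). With the length offset this held for 1 of the 8, Baz2a (0.23), and the median over the 8 was 0.04 in place of 0.32. Of 15 CHD and NuRD genes, 4 had one with a higher value (Chd1 0.40, Chd2 0.52, Chd7 0.72 and Chd8 0.36) and 2 with a lower one (Hdac1 −0.32 and Mbd3 −0.22). Chd7, whose loss causes CHARGE syndrome, was the 1 gene called in these lists, with 1.82 ± 0.15 RPKM without dox and 2.94 ± 0.54 off dox (log2 fold change 0.72 with a standard error of 0.17, edgeR adjusted p = 0.087), and with the length offset it stood at 0.42 and was not called. Nor was any gene called in this comparison in the fit blocked by replicate number, with the share of reads counted as covariate, or at an adjusted p under 0.05. Of 8 INO80 and SRCAP genes, Ino80 (0.37) and Ep400 (0.42) had higher and Ruvbl1 (−0.45), Ruvbl2 (−0.33) and Vps72 (−0.42) lower values. Of 7 genes of Polycomb repressive complex 2, which opposes SWI/SNF at many genes, Jarid2 (0.42) had a higher value and Ezh2 (−0.27) and Rbbp4 (−0.24) lower ones. With the length offset an unadjusted p under 0.05 was found for 3 of the 15 CHD and NuRD genes, 3 of the 8 INO80 and SRCAP genes and 3 of the 7 Polycomb genes, beside 2920 of all 17561 genes. In plus-dox vs no-dox the unadjusted p was under 0.05 for Baz1a, Baz2a, Bptf, Chd1, Chd3, Chd7, Ino80, Ep400 and Jarid2 with higher values of 0.23 to 0.43, and for Hdac1, Ruvbl1, Vps72, Ezh2 and Rbbp4 with lower values of −0.36 to −0.25, beside 13.7% of all genes, and 0 were called. With the length offset that p was found for 0 of 8 ISWI, 0 of 15 CHD and NuRD, 1 of 8 INO80 and SRCAP and 2 of 7 Polycomb genes. Off dox, and counting the further SWI/SNF genes, the 14 genes with higher values had a median exonic length of 8054 bp (4369 to 11488) and the 11 with lower values one of 1969 bp (1436 to 3889). Every gene with a higher value was thus longer than every gene with a lower one.

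**Figure D5:**
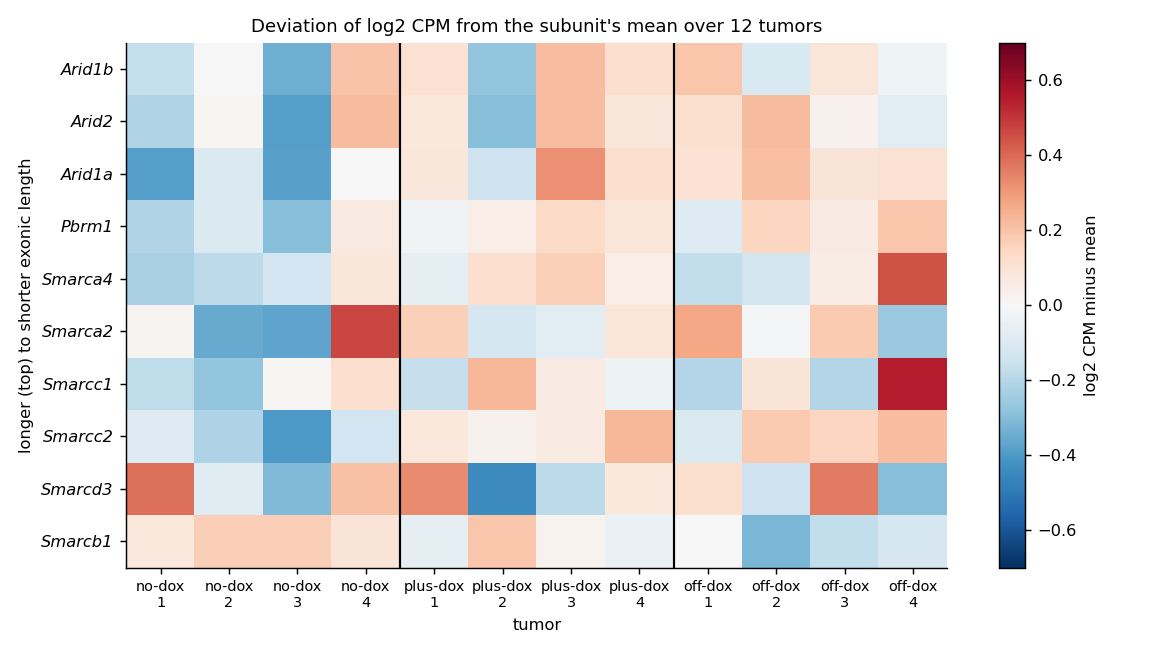
Deviation of log2 CPM from each subunit's mean over the 12 tumors (color scale), with tumors in columns by group and genes in rows from long (top) to short exonic length. No-dox tumor 3 is below the mean for 8 of the 10 subunits and off-dox tumor 4 is high for Smarca4 (0.44) and Smarcc1 (0.55), while Smarcb1 at the bottom is above its mean in all 4 no-dox tumors.

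Across the 12 tumors the subunits fell into patterns of unlike kind, given here as descriptions of log2 CPM in tumors that share groups, length trend and cell makeup. Arid1a went with Arid2 (r = 0.83) and Pbrm1 (r = 0.83), Arid1b with Arid2 (r = 0.85), and Pbrm1 with Smarcc2 (r = 0.84). Without plus-dox tumor 2 and off-dox tumor 4 these values were 0.89, 0.91, 0.81 and 0.82. Smarca4 went with Smarcc1 (r = 0.82), and this value fell to 0.52 without those tumors. Smarcd3 went most with Smarca2 (r = 0.69), and Smarcb1 ran against Smarcc2 (r = −0.74) and Arid1a (r = −0.64). Of the 12693 other genes at this level of expression, those most like each subunit were Dcp1a (r = 0.98), Bptf (0.96) and Prdm2 (0.96) for Arid1a, Tnrc18 (0.96), Ulk1 (0.96) and Slc9a8 (0.95) for Arid1b, Arid5b (0.97), 1700081L11Rik (0.97) and Bbx (0.97) for Arid2, and Gatad2b (0.96), Atxn7l3 (0.96) and Polr2a (0.95) for Pbrm1. They were Sft2d3 (0.93), Tef (0.90) and Six2 (0.85) for Smarca2, Sik3 (0.94), Bcr (0.94) and Klhl26 (0.93) for Smarca4, and Lrrc8c (0.96), Pls3 (0.96) and Steap2 (0.95) for Smarcc1. For Smarcc2 they were Snapc4 (0.94), A330021E22Rik (0.93) and Med12 (0.93), for Smarcb1 the short genes Eif4a3 (0.92), Rab1b (0.91) and Otub1 (0.91), with exons of 1463 to 1835 bp, and for Smarcd3 Tgfb3 (0.93), Phf11 (0.92) and Accs (0.91). Such values were picked as the highest of many, over 12 tumors only.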

How the data were processed

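RNA of 12 tumors was measured by polyA, unstranded sequencing. Reads of 50 bp were mapped by the authors to mm9 (TopHat, version 1.4.1) and counted over unambiguous exonic spans of a condensed RefSeq annotation. The deposited expected counts are base-wise coverage in reads, without normalization, and were rounded here. The RPKM of the authors divides them by exonic length and total mapped reads. How duplicates and multiply mapped reads were treated is not given in the sources used here. A further allele of the tumor line, shared by all groups, is not reported here.

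The members and gene lists were chosen with earlier results of these data known. All 10 subunits are named. Of the other lists, genes with an unadjusted p under 0.05 in any pair and 4 core partners are named, with the 3 genes most correlated with each subunit.

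Genes whose counts over all tumors reached 10 were tested with edgeR (version 4.0.16), TMM normalization and 1 fit of the 3 groups. Log2 CPM used a prior count of 2. Alternatives were DESeq2 (version 1.42.0), which the authors used, limma (version 3.58.1) on log2 RPKM, other filters, normalization, covariates and tumors. The length offset is a loess trend on log2 exonic length in each tumor. The trend is that of log2 CPM minus the gene's mean over the tumors, fitted to genes over 0.25 RPKM and 250 bp. Counts were also simulated from each gene's mean over all tumors, with 200 of 17378 genes changed by 2 on the log2 scale in plus-dox tumors. At an adjusted p under 0.1 alone, edgeR recovered 91% with 11.2% false calls, and DESeq2 93.5% with 26.7%. The log2 fold changes of the subunits off dox against no-dox ran only from −0.28 to 0.34. These shares therefore do not give the power to find changes of that size. The depth of 19845923 to 33137609 counted reads gave 350 or more reads behind every value of a subunit.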

Additional observations from a re-analysis of the deposited data

Results flagged for a closer look

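In 5 of 42 groups of 4 tumors, 1 tumor lay far from the other 3 by Dixon's test, where chance flags about 1 in 20, or 2.1 of 42. The groups were the 3 treatment groups for each of the 10 subunits and each of 4 ratios of subunits, and 0 ratios were among the 5. In plus-dox tumor 2, Arid1b was at 3.84 RPKM against a group median of 5.18, and Arid2 was at 5.60 RPKM against 7.56. Smarca4 was at 20.0 RPKM in no-dox tumor 4 against a group median of 17.4, and at 19.0 RPKM in plus-dox tumor 1 against 20.6. Smarcc2 was at 22.4 RPKM in off-dox tumor 1 against a group median of 26.5. Without plus-dox tumor 2 and off-dox tumor 4, the log2 fold change of Arid1a was 0.38 for plus-dox and 0.35 for off-dox, and that of Smarcc2 was 0.33 and 0.29.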

How the results depend on the processing

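The count of subunits called was 0 in each comparison under all alternatives run. For the subunits followed below this was fixed by the 1.5-fold limit, since their log2 fold changes lay within −0.33 to 0.41 in every setting. It therefore says nothing of their p-values. DESeq2 without moderated fold changes put Smarcc2, Arid1a and Smarcb1 under an adjusted p of 0.1 in off-dox vs no-dox. All log2 fold changes followed here (Arid1a and Smarcc2 for both groups against no-dox, Pbrm1 and Smarcb1 for off-dox) kept their direction, except that of Pbrm1 off dox, which was −0.028 with the length offset; the cause was not tested. The count of subunits with an unadjusted p under 0.05 is given here beside that of all genes, which moved too. In plus-dox vs no-dox it was 0 with the share of reads counted as covariate (478 of 17561 genes) and 1 with the length offset (1972 of 17561). With a tumor left out it was 1 to 3 (1556 to 3143 genes). In off-dox vs no-dox it was 0 with that covariate (308 of 17561 genes) and 1 with the length offset (2920 of 17561). With a tumor left out it was 3 to 4 (2689 to 4301 genes). In off-dox vs plus-dox it was 1 with limma on log2 RPKM with a pseudocount of 0.25 or 1 (378 and 391 of 14586 genes). With a tumor left out it was 0 to 1 (323 to 858 genes). Genes called moved far more. For plus-dox vs no-dox they were 128 and 90 with DESeq2 without and with moderated fold changes, and 0 to 3 with a tumor left out (3 without plus-dox tumor 1), and for off-dox vs plus-dox 6, 4, and 0 to 1 (1 without off-dox tumor 1). For off-dox vs no-dox they were 615 and 396 with DESeq2, 122 without a filter, 365 with 10 counts in every tumor, 3 with the 8 tumors alone, 0 at an adjusted p under 0.05, 0 with the covariate, 471 without plus-dox tumor 2 and off-dox tumor 4, 49 with the length offset, 123 with limma at a pseudocount of 1, and 0 to 789 with a tumor left out. That last count was 0 on removing any of the no-dox tumors 1, 2 and 4, of the off-dox tumors 2, 3 and 4, or plus-dox tumor 4. Removing the third no-dox tumor gave 1, the third plus-dox tumor 19, and the first off-dox tumor 789. Tumors with the same replicate number did not deviate together (mean r −0.088 over 12 pairs, 0.043 over the 36 other pairs). In a fit blocked by replicate number 0 genes were called in off-dox vs no-dox. The counts of subunits under an unadjusted p of 0.05 were 2, 4 and 0 as without the block, beside 1978, 3152 and 397 of 17561 genes. The order of the 10 levels was the same with TMM-normalized counts per kilobase. Standard errors of the subunits' log2 fold changes were 0.09 to 0.21 in all comparisons, and no value rested on fewer than 350 reads.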
